A study of Rattus norvegicus with 40 samples.

Results

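Left common carotid arteries taken 4 days after a sham operation were compared with carotid arteries of rats that had not been operated on. The 2 groups were chosen by their labels, 6 arrays of sham arteries of day 4 and 6 arrays of intact arteries, 12 of the 40 arrays of the series. All rats were male Wistar-Kyoto rats of 3 months, and RNA from the vessels of 3 rats was pooled for each array, so each group holds 18 vessels. Sham arteries of day 1 gave 4 more arrays. The other 24 came from rats whose left carotid had been injured by balloon catheter and given pluronic gel on its outside, plain (500 μl) or with tissue plasminogen activator (tPA, 20 nmol/kg), with 3 arrays for each combination of side, gel and day (1 or 4). What the sham operation consisted of, and whether gel was applied in it is not given in the sources used here. Each array is one pool, nothing says whether pools were handled on separate days, and p-values measure the spread between these arrays alone.

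The carotid wall is made mainly of smooth muscle cells in a matrix of collagen and elastin, with a single layer of endothelium inside and a sleeve of connective tissue, nerve endings and fat outside. Cells make cholesterol from acetyl-CoA through the mevalonate pathway, in which Idi1, Fdps, Fdft1, Sqle, Lss, Cyp51, Msmo1 and Nsdhl are successive or neighbouring enzymes. SREBP transcription factors switch these genes on when membrane cholesterol is low, and Insig1, itself a target of SREBP, holds the SREBP complex in the endoplasmic reticulum when cholesterol is sufficient. Fatty acid enzymes such as Acly, Acaca, Fasn and the desaturases Scd and Scd2 are under related control. Fewer cells of a type and less RNA per cell cannot be told apart in RNA of whole vessels.

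Values are the deposited intensities of Affymetrix rat genome arrays, 1 value per probe set, which is a group of short probes for one transcript. Differences are log2, sham minus intact, so that 1 is a doubling, and "passed" means an adjusted p under 0.05 in limma's moderated test over all 5827 probe sets tested. A gene is represented by its brightest probe set, which gave 3546 genes. Smooth muscle actin Acta2 was bright in both groups (4984.7 to 10101.5 in intact and 6047.3 to 13013.7 in sham arrays), as was calponin Cnn1 (2156.7 to 4962.3 and 3822.8 to 6718.4), and the endothelial marker Pecam1 was dim (79.2 to 138.4 and 122.2 to 183.7). Values were raised to a floor of 23.3 intensity units, which touched 15.6 to 20.6% of the values in sham and 20.5 to 23.9% in intact arrays (exact permutation test, two-sided, p = 0.00433, adjusted 0.0216 over 5 measures). Array medians were 122.2 to 155 and 114.45 to 132.55 (exact p = 0.0649). The 3'/5' ratios of the actin and GAPDH controls, which rise with RNA degradation, overlapped between the groups (exact p = 0.833 and 0.801). They were well above 1 in every array of both groups. Actin read 11.8 to 23.7 in sham and 10.7 to 17.6 in intact arrays, and GAPDH 3.27 to 9.53 and 3.27 to 9.92. The part of these array differences in the gene differences was not tested.

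At 4 days after the sham operation the artery differed from the intact artery in few genes. Several sterol synthesis genes and the fatty acid desaturase gene Scd2 were lower, and immunoglobulin kappa probe sets were higher. Of 5827 probe sets 22 passed (0.378%), 9 of them higher (0.154%) and 13 lower (0.223%), and 586 had an unadjusted p under 0.05 (10.1%). With array medians set equal, 22 passed, 6 higher and 16 lower, 19 of them shared. By brightest probe set 9 named genes of 3546 passed (0.254%). Sqle, Insig1, Msmo1, Scd2, Tubb2b, Usp37, Cgrrf1 and Rfx5 were lower (0.226%) and Or4b1d was higher (0.0282%). All sham arrays lay above all intact arrays in 0.669% of probe sets and 0.564% of genes, and below them in 0.721% and 0.846%. Of the 3546 genes 1871 had a difference above 0 and 1675 below. With array medians set equal the median difference dropped by 0.12, and 6 probe sets were higher and 16 lower. Or4b1d was among those that no longer passed. The count rested on single arrays: in limma 0 probe sets passed without intact replicate 1, without intact replicate 4 or without sham replicate 6 (471, 565 and 535 at an unadjusted p under 0.05). It was 5 without intact replicate 3, 10 without intact replicate 5, 12 without sham replicate 5, 13 without intact replicate 2 or 6, and 14 without sham replicate 2. Each of the 22 kept its direction in every one of these fits, which was likely beforehand, since they were selected on the same arrays.

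**Figure D1:**
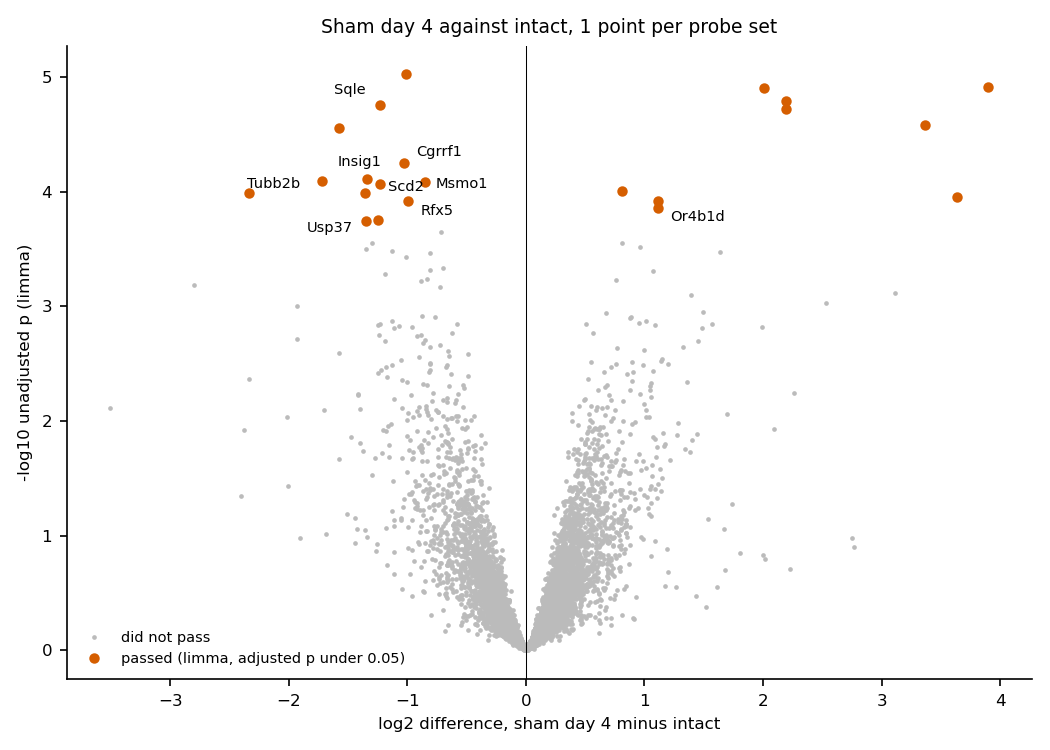
Each point is 1 of 5827 probe sets, with the log2 difference of sham day 4 minus intact on the horizontal axis and -log10 of the unadjusted limma p on the vertical axis. Orange points are the 22 that passed, 13 to the left of 0 and 9 to the right, and names mark the 9 genes that passed by their brightest probe set.

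Promoter sequence was at hand in RefSeq (GRCr8) for 13 of the 17 sterol and fatty acid genes tested. The 250 bases before the annotated start are shown for the 3 of the 4 fallen genes that matched, because these genes moved together. Capitals mark the CCAAT motif, bound by NF-Y, a partner of SREBP at many such promoters, and the motif CACNCCAC, the core of the classical sterol element, both searched on both strands. Insig1 lies at chr4:8057770-8058019 on the minus strand, Msmo1 at chr16:29746863-29747112 on the plus strand and Scd2 at chr1:253118127-253118376 on the plus strand, each printed 5' to 3' along its gene.
Insig1: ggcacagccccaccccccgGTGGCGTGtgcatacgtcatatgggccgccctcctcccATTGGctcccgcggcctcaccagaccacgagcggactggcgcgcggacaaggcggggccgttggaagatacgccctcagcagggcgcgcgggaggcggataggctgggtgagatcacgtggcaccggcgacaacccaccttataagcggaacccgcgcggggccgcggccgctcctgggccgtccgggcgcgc
Msmo1: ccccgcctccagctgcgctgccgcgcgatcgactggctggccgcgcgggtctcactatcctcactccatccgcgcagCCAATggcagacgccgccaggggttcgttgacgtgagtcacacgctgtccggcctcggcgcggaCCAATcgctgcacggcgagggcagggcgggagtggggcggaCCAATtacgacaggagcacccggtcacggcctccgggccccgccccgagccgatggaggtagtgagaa
Scd2: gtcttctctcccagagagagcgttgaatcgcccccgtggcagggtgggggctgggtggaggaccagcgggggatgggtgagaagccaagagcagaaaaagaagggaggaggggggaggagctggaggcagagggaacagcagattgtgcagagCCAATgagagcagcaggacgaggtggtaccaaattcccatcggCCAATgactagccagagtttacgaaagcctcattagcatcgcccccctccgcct
Insig1 held 1 CCAAT and 1 CACNCCAC, Msmo1 held 3 CCAAT and Scd2 held 2 CCAAT. The same motif lay in 10 of the 13 sterol promoters (Acly, Fdps, Idi1, Insig1, Lss, Msmo1, Mvd, Nsdhl, Scd2 and Srebf1) and in 36.8% of the promoters of 2921 tested genes, or 34% of all 33469. CACNCCAC lay in 1 of the 13, Insig1, against 5.61% of tested genes and 4.89% of all, and the longer TCACNCCAC in 0 of the 13 against 0.822% and 0.974%. The E box CACGTG lay in 1 of the 13, Insig1, against 8.49% and 5.59%. A match of letters is a description of the window and not a measured binding site.

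Of the 8 named genes that fell, 3 belong to sterol synthesis (Sqle, Insig1 and Msmo1) and 1 to fatty acid synthesis (Scd2). Sqle encodes squalene epoxidase, which carries out a rate-limiting step after squalene. Its intensity was 306 at the lowest, 352.85 at the median and 426.3 at the highest in sham arrays, against 586, 774.7 and 1626.3 in intact arrays. Every sham array lay below every intact array, a 2.35-fold lower level (95% interval 1.66 to 3.33, limma adjusted p = 0.0184). Insig1 read 286.1, 578.3 and 771.6 in sham arrays and 872.7, 1297.5 and 2299.1 in intact arrays, again with no overlap, and was 2.53-fold lower (1.67 to 3.85, adjusted p = 0.037). A second Insig1 probe set pointed the same way without passing (-1.13, SE 0.32, adjusted p = 0.141).

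Msmo1, a methyl sterol oxidase that removes methyl groups from the sterol ring, read 1343.3, 2110.85 and 2798.5 in sham arrays. In intact arrays it read 2884, 3696.85 and 4490.3. The groups did not overlap, and the level was 1.80-fold lower (1.38 to 2.35, adjusted p = 0.037). Scd2, a stearoyl-CoA desaturase that makes monounsaturated fatty acids, stood at 1155.1, 2861.35 and 3221 in sham arrays and at 5011.6, 5872.9 and 6287.2 in intact arrays. All 6 sham arrays were lower, by 2.35-fold (1.59 to 3.46, adjusted p = 0.037). A second bright probe set of Scd2 passed too (-1.36, SE 0.31, adjusted p = 0.037), while 2 dim ones did not (-0.04 and 0.17, adjusted p = 0.984 and 0.801).

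**Figure D2:**
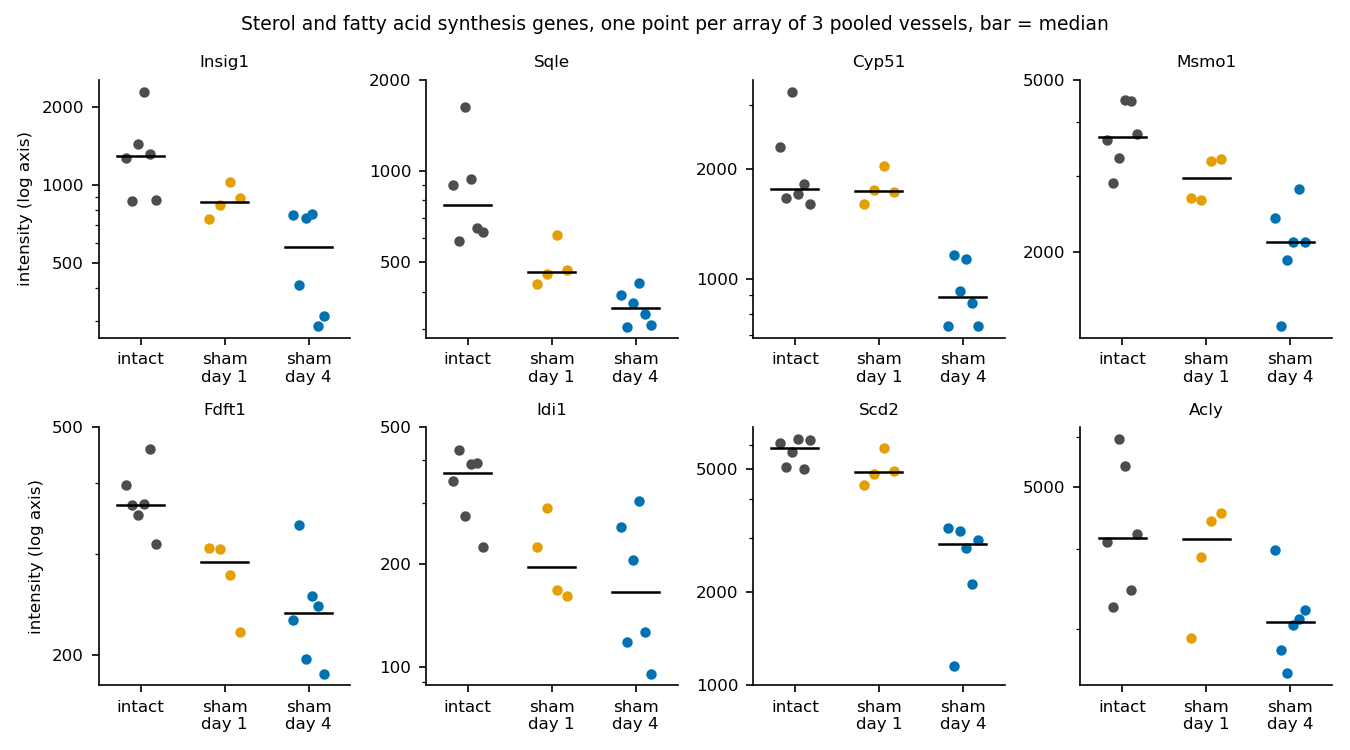
Intensity (log axis) of 8 sterol and fatty acid synthesis genes in each intact, sham day 1 and sham day 4 array, with bars at the group medians. For Insig1, Sqle, Cyp51, Msmo1 and Scd2 all 6 sham day 4 points lie below all 6 intact points, while those of Fdft1, Idi1 and Acly overlap the intact range.

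Other members of the pathway lay lower without passing. Cyp51, the lanosterol demethylase, read 740.7, 889.9 and 1164.1 in sham and 1600.6, 1765.4 and 3268.5 in intact arrays, with no overlap, at a difference of -1.13 (SE 0.28, adjusted p = 0.0663). Its 3 other probe sets had -0.64, -0.21 and -1.03. Fdft1, squalene synthase, had -0.66 (SE 0.20, adjusted p = 0.18), with 5 of 6 sham arrays below the intact range and -1.57, -1.93 and -1.24 in its 3 dimmer probe sets. Idi1, the isomerase of isopentenyl diphosphate, had -0.99 (SE 0.36, adjusted p = 0.29) and 4 sham arrays below the range. Acly, which makes cytosolic acetyl-CoA from citrate, had -0.48 (SE 0.22, adjusted p = 0.465), with -0.92 and 0.55 in its other probe sets.

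Smaller differences were seen for Fdps (-0.43), Nsdhl (-0.42), Lss (-0.27), Fasn (-0.26), Scd (-0.21), Mvd (-0.14) and Dhcr7 (-0.03), and 2 genes lay above 0, Acaca (0.15) and Srebf1 (0.51). A second Fasn probe set lay above 0 in every fit run for it (0.45 to 0.65). Other probe sets of Fdps (-0.73 to -0.10 and -1.51 to -0.91) and Dhcr7 (-0.55 to -0.27) lay below 0. That of Lss lay on both sides (-0.11 to 0.15), and none of these passed in any fit. Srebf1, which encodes SREBP-1, was dim (50.4 to 271.7 in sham and 40.7 to 92.9 in intact arrays), and the sham replicate 1 value of 271.7 stood alone. Of 26 genes listed for this group 18 were on the array and 17 were tested. Of these, 4 fell, 0 rose, 15 had a difference below 0, 8 were lower at an unadjusted p under 0.05 (5.78% of all genes were) and 5 had groups that did not overlap (0.846% of all genes, lower). The list median was -0.43, beside 0.03 for all genes, and lay between -0.57 and -0.38 under every setting tried. Membership was chosen with earlier results of these data known, so the counts describe the list. The number of passing members was 1 after quantile normalization and 0 with only the 2 groups in the fit. Left-out arrays changed it to between 0 and 5, with 0 without intact replicate 1, 3 or 4 or sham replicate 6, 1 without sham replicate 2 or intact replicate 5, and 2 without sham replicate 5 or intact replicate 6.

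Acat2, the cytosolic thiolase that starts the mevalonate pathway, was outside that list and is named because 1 of its probe sets passed, a choice made after its value was seen. That probe set read 174.7 to 261.5 in sham and 423 to 1560 in intact arrays, with no overlap (-1.57, SE 0.32, adjusted p = 0.0204). Its brighter probe set had -0.70 (SE 0.30, adjusted p = 0.375), and 2 of 6 sham arrays lay below the intact range.

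Across the series the mean level of these genes, though not each gene, was lowest in the sham arrays. The mean of the 17 genes, centred over all 40 arrays, was -0.61 to -0.24 in sham arrays of day 4, -0.47 to -0.23 in sham arrays of day 1 and -0.10 to 0.30 in intact arrays. All 10 sham arrays lay below all 30 others, whose lowest value was -0.12. The highest group was the right arteries of gel-treated rats on day 4, at 0.42 to 0.84. Single genes departed from this order: Scd2 read 3169.3 to 3926.8 in injured left arteries with plain gel on day 1, below its 4454 to 5882.1 in sham arrays of that day, and Sqle read as low as 348.9 in left arteries with tPA on day 1. By gene the days differed in part: for Scd2 the sham difference of day 4 exceeded that of day 1 (day 4 minus day 1 -1.04, SE 0.31, adjusted p = 0.0424), though not once the day 1 replicates that were most alike were averaged (adjusted p = 0.291). For Sqle, Insig1 and Msmo1 that difference was -0.46, -0.79 and -0.51 and did not pass (adjusted p = 0.310, 0.148 and 0.138). On day 1 itself none of the 17 passed against intact arteries, all 17 had a difference below 0, and the median was -0.36, against the same 6 intact arrays. Of all 3546 genes 2042 lay below 0 on day 1, with a median of -0.08.

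Adipocyte markers were listed because fat lies around the vessel, and their part in the sterol and fatty acid differences was not tested. Of 13 adipocyte genes tested 0 passed, 10 had a difference above 0 and the median was 0.28. The hormone-sensitive lipase gene Lipe had 0.79 (adjusted p = 0.41), the glycerol channel gene Aqp7 0.63 (0.52), the glucose transporter gene Slc2a4 0.56 (0.675) and the fatty acid carrier gene Fabp4, dim and variable, 1.2 (0.676). The 3 below 0, named after their values were seen, were the lipoprotein lipase gene Lpl (-0.55, 0.784), Acsl1 (-0.25, 0.853) and Cfd (-0.04, 0.976).

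**Figure D3:**
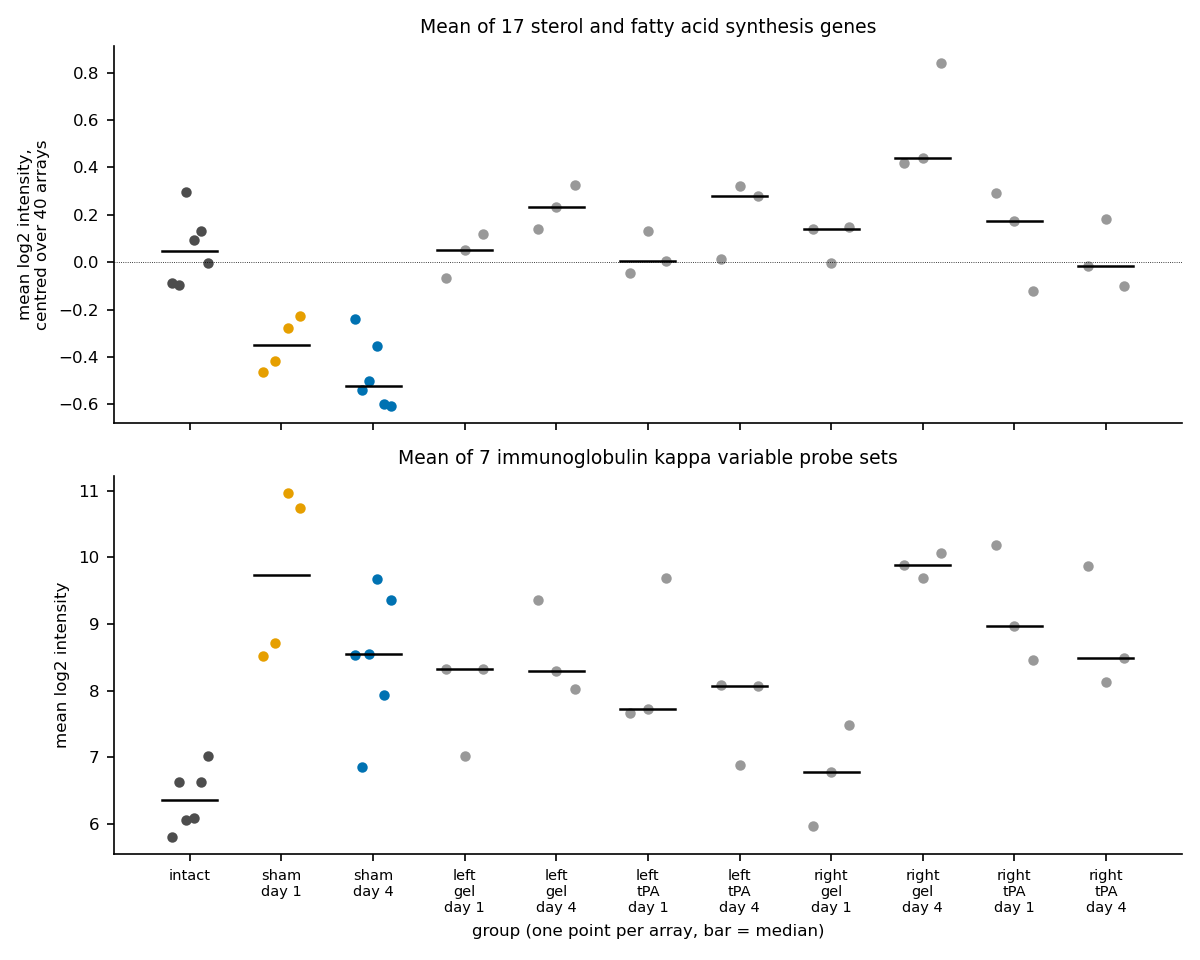
Upper panel, mean centred log2 intensity of 17 sterol and fatty acid synthesis genes, and lower panel, mean log2 intensity of 7 kappa variable probe sets, for each of 40 arrays by group, with bars at the medians. The 10 sham arrays are the lowest in the upper panel, at -0.23 or less, and intact arrays are low in the lower panel, at 7.02 or less.

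Outside lipid synthesis 4 named genes fell. Tubb2b, a beta tubulin that is abundant in neurons, read 595.5, 1006.8 and 1700 in sham and 1385.5, 3863.95 and 5038.1 in intact arrays. Only intact replicate 2, the lowest, lay within the sham range, and the level was 3.29-fold lower (1.92 to 5.64, adjusted p = 0.037). Rfx5, a transcription factor of the complex that binds MHC class II promoters, read 608.9, 905.65 and 1076.6 against 1184.8, 1770.35 and 2461.8, without overlap, at 1.99-fold lower (1.45 to 2.75, adjusted p = 0.037). The class II gene RT1-Db1 read 129.2 to 380.1 in sham and 144.3 to 1557.4 in intact arrays (-0.73, SE 0.54, adjusted p = 0.656). Other class II genes lay on both sides of 0 and did not pass: RT1-Ba (-0.36), RT1-DMb (-0.29), RT1-Da (-0.01), RT1-DMa (0.10) and RT1-Bb (0.27).

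Cgrrf1, a RING finger protein, read 354.1, 411.55 and 700.9 in sham and 706.3, 979.15 and 1132.8 in intact arrays, so that the highest sham array lay just under the lowest intact one. It was 2.04-fold lower (1.49 to 2.80, adjusted p = 0.0361). Usp37, a deubiquitinase, read 46.4, 104.9 and 200.1 against 207.5, 249.45 and 315.8, also without overlap, at 2.56-fold lower (1.63 to 4.02, adjusted p = 0.0478). Usp37 and Rfx5 were lower on day 4 than on day 1 after sham (-1.82 and -0.99, adjusted p = 0.00385 and 0.0249), which did not pass with the alike day 1 replicates averaged (adjusted p = 0.0963 and 0.255).

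Higd1a and Stk38 were called on a dimmer probe set of theirs and are named after their values were seen. Higd1a, a mitochondrial protein induced by low oxygen, read 457.9 to 766 in sham and 997.2 to 1552 in intact arrays in the probe set that passed (-1.01, SE 0.19, adjusted p = 0.0184), and its brighter one had -0.76 (SE 0.22, adjusted p = 0.141). Stk38, a kinase of the NDR family, had -2.34 (SE 0.53, adjusted p = 0.037), with 5 of 6 sham arrays below the intact range, and -1.0 (SE 0.33, adjusted p = 0.23) in its brighter one. A further probe set that fell, X52625_at (-1.25, SE 0.30, adjusted p = 0.0478), has no gene in the annotation.

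Among the 9 probe sets that rose, 3 are annotated to the same 2 immunoglobulin kappa variable genes, so no single gene is named. Kappa chains are one of the light chain types of antibodies and are made by B cells and plasma cells. M18527cds_f_at read 117.7, 362.85 and 544.9 in sham and 46, 84.15 and 114.9 in intact arrays, M18531cds_f_at read 163.8, 422.15 and 597.4 against 57.7, 81.7 and 132, and M18532cds_f_at read 285.9, 525.4 and 912.5 against 24.3, 170.05 and 305. The first and second showed no overlap, and in the third only the lowest sham array lay within the intact range. Their differences were 2.01 (SE 0.39), 2.20 (SE 0.44) and 2.19 (SE 0.44), each with adjusted p = 0.0184, or 4.03, 4.58 and 4.57-fold. All 7 probe sets with these 2 symbols were tested, and the other 4 lay higher too (1.99, 2.53, 2.26 and 1.63, adjusted p = 0.141, 0.126, 0.255 and 0.0663). Such family probe sets share probes with similar sequences and are no separate measurements.

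The mean log2 level of these 7 probe sets was 5.80 to 7.02 in intact and 6.86 to 9.68 in sham arrays of day 4, with only sham replicate 2 inside the intact range. Sham arrays of day 1 read 8.52 to 10.96. Of the other groups, right arteries of gel-treated rats were nearest to intact on day 1 (5.97 to 7.48) and read 9.69 to 10.07 on day 4. On day 1 after sham, when 55 probe sets passed (0.944%, 23 higher, 0.395%, and 32 lower, 0.549%, or 29 higher and 21 lower with array medians set equal and 23 and 20 after quantile normalization), these 3 were among them (2.78, 2.62 and 2.79, adjusted p = 0.00025, 0.00162 and 0.000671), against the same intact arrays, and day 4 minus day 1 did not pass (-0.77, -0.42 and -0.60, adjusted p = 0.285, 0.632 and 0.469). Of 12 lymphocyte genes tested 0 passed, 5 had a difference above 0 and the median was -0.07, and the 1 heavy chain variable probe set tested, of Ighvl1, had 0.16 (SE 0.20, adjusted p = 0.817).

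The probe sets with the largest rises have no entry in the annotation and stay unnamed. M28670_at read 47.6, 514.7 and 1011.5 in sham arrays, while 5 of 6 intact arrays were at the floor and the last read 28.5. M18528cds_f_at read 19.2, 740.35 and 1407 against 11, 22 and 84.9, with sham replicate 2 among the intact values. U39609_s_at read 207.4, 1124.65 and 3474.5 against 29.4, 103.65 and 284.3, again with 1 sham array in the intact range. Their differences were 3.90 (SE 0.76, adjusted p = 0.0184), 3.64 (SE 0.83, adjusted p = 0.037) and 3.37 (SE 0.69, adjusted p = 0.0204), the first and second set in part by the floor. They too lay higher on day 1 (4.52, 5.67 and 4.54, adjusted p = 0.00162, 0.000382 and 0.000557).

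An inducible heat shock probe set rose as well. L16764_s_at, annotated to both Hspa1b and Hspa1a, read 4138.1, 6257.05 and 6761.5 in sham and 2573.1, 3148.75 and 4291.1 in intact arrays. The lowest sham array alone overlapped, and the level was 1.75-fold higher (1.35 to 2.27, adjusted p = 0.037), a call lost with equal array medians (0.69) or quantile normalization (0.67). Hspa1a, the chaperone induced by protein damage, read 1010.1 to 3545.1 against 511.4 to 948.1 in its own probe set, with no overlap, but did not pass (1.49, SE 0.42, adjusted p = 0.141).

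The last rises were of dim probe sets of genes best known from the nervous system. Or4b1d, annotated as an olfactory receptor, read 179.4, 313.25 and 487.7 in sham and 107.8, 121.45 and 212 in intact arrays, with 4 of 6 sham arrays above the intact range, at 2.16-fold higher (1.5 to 3.11, adjusted p = 0.0407). Gabrd, a subunit of the GABA-A receptor named after its value was seen, read 178.7 to 259.5 against 36 to 166.2 in the probe set that passed (1.11, SE 0.26, adjusted p = 0.037) and 388.6 to 616.2 against 318.9 to 565.4 in its brightest (0.30, SE 0.21, adjusted p = 0.639). Neither Or4b1d nor Gabrd passed with equal array medians (0.99 and 0.99) or quantile normalization (1.07 and 1.00). Intact arrays also had more values at the floor, and its part in these dim rises was not tested.

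In the list of heat shock and oxidative stress genes 0 of 20 passed, 10 lay above and 10 below 0. Nqo1, a quinone reductase driven by Nrf2, read 239.9, 791.7 and 1067 in sham and 1250, 1695.3 and 2518.5 in intact arrays. No sham array reached the intact range, and the difference was -1.30 (SE 0.32, adjusted p = 0.0657). Hspa5, the main chaperone of the endoplasmic reticulum, also did not overlap, at 1223.4 to 3375.2 against 3803.7 to 5502.7 (-0.83, SE 0.22, adjusted p = 0.0929). Prdx1, a peroxiredoxin, had -0.52 (SE 0.28, adjusted p = 0.546).

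Immediate early genes, which respond within minutes to growth signals and stress, had a median of 0.29 over 20 tested, with 0 past the test. Of these 16 lay above 0 (1871 of all 3546 genes did). At an unadjusted p under 0.05, 4 were higher and 2 lower (4.48% and 5.78% of all genes). The list median was 0.16 with equal array medians and 0.16 with quantile normalization. Atf3 read 398.3, 606.4 and 1786.4 in sham and 227.5, 331.65 and 349.8 in intact arrays, without overlap (1.14, SE 0.35, adjusted p = 0.196). Nr4a3, an orphan nuclear receptor, had 5 of 6 sham arrays above the intact range (1.45, SE 0.43, adjusted p = 0.162), and Fos had 2 (0.64, SE 0.24, adjusted p = 0.326). Klf4, a factor that represses smooth muscle genes, lay lower (-0.68, SE 0.25, adjusted p = 0.313). The glucocorticoid response list had 0 of 8 past and a median of 0.16, with the phosphatase gene Dusp1 at 0.48 (adjusted p = 0.401), the binding factor gene Cebpd at 0.35 (0.574), the receptor gene Nr3c1 at -0.43 (0.568) and Glul at -0.25 (0.708).

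**Figure D4:**
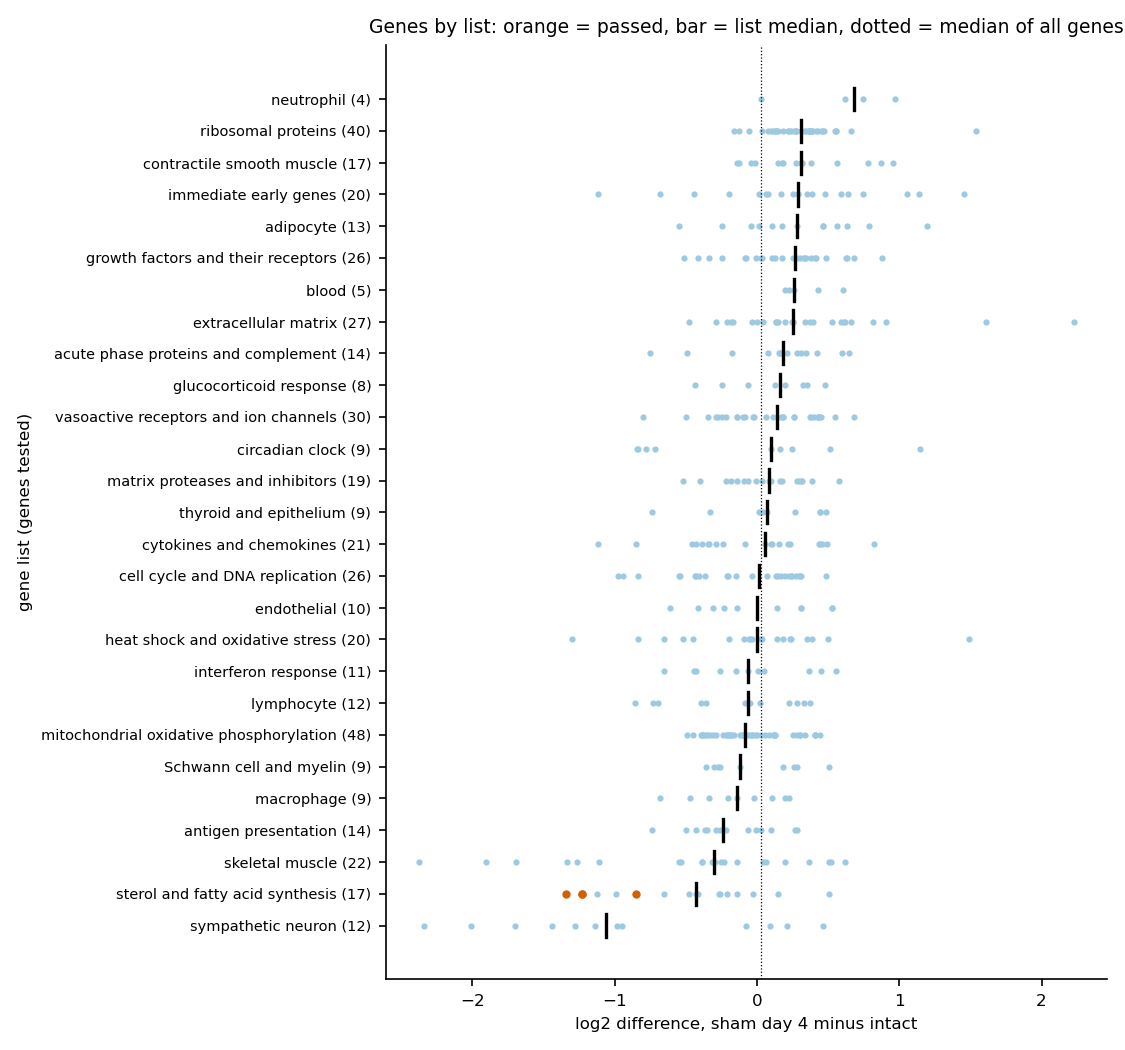
Log2 difference of sham day 4 minus intact for each tested gene of 27 lists, ordered by list median (bar), with the number of genes tested in parentheses. The 4 orange points, all in the sterol and fatty acid list, are the only list members that passed, and the dotted line is the median of all genes, 0.03.

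Contractile genes of smooth muscle had a median of 0.31 over 17 tested, 13 above 0 and 0 past the test. Itga7, a laminin receptor of muscle, read 3966.8, 5058.35 and 8322 in sham and 1709.9, 3258.05 and 3738.5 in intact arrays, with no overlap (0.95, SE 0.27, adjusted p = 0.141). Cnn1 had 0.56 (SE 0.26, adjusted p = 0.465), Csrp1 0.38 (0.55) and Acta2 0.31 (0.551). With array medians set equal the list median was 0.19, and with quantile normalization 0.07. Vasoactive receptors and ion channels had 0 of 30 past and a median of 0.14. Among them Agtr1a, the angiotensin receptor, had -0.80 (adjusted p = 0.411), Cacnb2, a calcium channel subunit, 0.45 (0.513), Ptgir, the prostacyclin receptor, 0.68 (0.543) and Adora2a, an adenosine receptor, 0.38 (0.551).

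Matrix genes had 0 of 27 past, 20 above 0 and a median of 0.25. Lox, which cross-links collagen and elastin, read 6142.6, 7696.4 and 9696.9 in sham and 4120.4, 5168.5 and 7594.7 in intact arrays (0.53, SE 0.17, adjusted p = 0.224), with 3 of 6 sham arrays above the intact range. Col1a1 had 0.33 (adjusted p = 0.55), the matricellular genes Tnc and Postn 0.62 (0.579) and -0.48 (0.551). Of 19 proteases and inhibitors 0 passed, with a median of 0.09 (-0.04 with equal array medians). Mmp14, a membrane collagenase, had 0.58 (adjusted p = 0.338), Timp2 0.39 (0.573), A2m 0.31 (0.561), and Plat, which encodes tPA, -0.52 (0.561). Growth factors and receptors had 0 of 26 past and a median of 0.27, with Fgf2 at 0.49 (adjusted p = 0.362), Igfbp3 at 0.88 (0.401), Pdgfrb at 0.68 (0.512) and Vegfa at 0.42 (0.605).

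Ribosomal protein genes leaned one way, 37 of 40 above 0 (1871 of all 3546 genes were) with a median of 0.31 and 0 past the test. At an unadjusted p under 0.05, 5 were higher (4.48% of all genes were). Rpl4 read 5567.8, 6175.8 and 9287 in sham and 4683.9, 4765.15 and 5496.1 in intact arrays, without overlap (0.39, SE 0.14, adjusted p = 0.29). Rpl21 had 0.55 (0.196), Rps15 0.56 (0.448) and Rpl19 0.66 (0.465). The median was 0.19 with equal array medians and 0.14 with quantile normalization. Mitochondrial respiratory genes had 0 of 48 past and a median of -0.08, Atp5f1a, Ndufc2 and Atp5f1c at -0.35, -0.38 and -0.38 (adjusted p = 0.344, 0.36 and 0.436) and Cox6a1 at 0.41 (0.352).

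Genes of inflammation did not pass on day 4. Cytokines and chemokines had 0 of 21 past and 0 at an unadjusted p under 0.05, with a median of 0.06. Cxcl13, which attracts B cells, was at -1.12 (adjusted p = 0.551), Csf3 at 0.46 (0.55), Il10 at 0.44 (0.578) and Mif at -0.34 (0.587). Of 14 acute phase and complement genes 0 passed (median 0.19), with C1s at -0.49 (0.491), Orm1 at 0.60 (0.535) and Fga at 0.35 (0.612). Interferon response genes had 0 of 11 past and a median of -0.06, Stat2 at -0.44 (0.412), Mx1 at 0.55 (0.578), Gbp2 at -0.66 (0.612) and Oas1a at 0.37 (0.64). Antigen presentation genes had 0 of 14 past, 10 below 0 and a median of -0.24, with RT1-S3 at -0.35 (0.634), Psmb9 at -0.43 (0.644) and B2m at 0.28 (0.657).

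Of 9 macrophage genes 0 passed, with a median of -0.14. Ctss, a lysosomal protease, read 996.1 to 2113.9 in sham and 1221.2 to 4159.1 in intact arrays (-0.68, SE 0.27, adjusted p = 0.343), and Aif1, C1qc and C1qb were at -0.47, 0.20 and -0.34. The 4 neutrophil genes tested lay above 0 (median 0.68) at intensities near the floor: Defa5 read at most 96.8, S100a9 68.6, S100a8 72.2 and Cxcr2 114 in sham arrays. Lymphocyte genes Gzmb, Cd48, Cd53 and Cd4 were at 0.33, -0.40, -0.73 and 0.37 (adjusted p = 0.639 to 0.728). Endothelial genes had 0 of 10 past and a median of 0.003, Pecam1 at 0.53 (adjusted p = 0.317), Vcam1 at -0.61 (0.495), Flt1 at -0.31 (0.677) and Kdr at 0.53 (0.713). The blood list, 5 genes, had a median of 0.26, with Pf4 at 0.61 (0.551), Alas2 at 0.43 (0.643), Slc4a1 at 0.20 (0.715) and Hbb at 0.26 (0.931).

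Cell cycle genes had 0 of 26 past and a median of 0.02, with 3 lower at an unadjusted p under 0.05 (5.78% of all genes) and 1, Dut, with all sham arrays below all intact arrays (0.846% of all genes). H2az1, a histone variant, read 412.3, 954.25 and 1471.9 in sham and 1045.8, 1827.95 and 2229.1 in intact arrays (-0.84, SE 0.29, adjusted p = 0.283), with 4 of 6 sham arrays below the intact range. Ccnd1, cyclin D1, was at -0.97 (0.474), Stmn1 at -0.94 (0.493) and Dut, which removes dUTP, at -0.40 (0.551), with 993.8 to 1411.7 in sham and 1420.9 to 1774.2 in intact arrays.

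Nerve and muscle markers depended on a few intact arrays. Of 12 sympathetic neuron genes 0 passed and the median was -1.06. Of these 9 lay below 0 (1675 of all 3546 genes did) and 7 were lower at an unadjusted p under 0.05 (5.78% of all genes). Nefm, a neurofilament, read 9.3, 20.25 and 57.4 in sham and 27.1, 192.3 and 655.4 in intact arrays (-2.34, SE 0.76, adjusted p = 0.224). Dbh, which makes noradrenaline, read 5.9, 18.15 and 46.3 against 28.2, 128.05 and 814.8 (-2.01, SE 0.73, adjusted p = 0.291). In both genes 4 of 6 sham arrays lay under the intact range. Nefl and Gap43 were at -1.70 and -1.14 (adjusted p = 0.283 and 0.306), Th, the first enzyme of the pathway, at -0.95 (0.36), and the transporter gene Slc6a2 at 0.21 (0.682). Among intact arrays the list mean was highest in replicate 3 (2.11), then replicates 6 (0.81) and 1 (0.53), and -0.23 or less in the other 3, while sham arrays of day 4 ran from -1.09 to -0.28. Without intact replicate 3 the median was -0.77 and 3 genes were lower at an unadjusted p under 0.05. In that fit 544 of 5827 probe sets had such a p in either direction. The fallen Tubb2b was also highest in intact replicates 3, 6 and 1 (5038.1, 4160.5 and 4040.3). Intact replicates 4 and 5, with list means of -0.96 and -0.61, lay above every sham array of day 4 for Tubb2b as well. The part of nerve tissue in the fall of Tubb2b was not tested.

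Skeletal muscle markers had 0 of 22 past and a median of -0.30, which was 0.02 without intact replicate 3. Tnnc2, a fast muscle troponin, read 67.2 to 104.1 in sham and 87 to 5369.9 in intact arrays (-2.38, SE 0.89, adjusted p = 0.315), and Myh4, Atp2a1 and Eno3 were at -1.91, -1.34 and -1.69. The list mean was 1.73 in intact replicate 3 and 0.77 in replicate 6, and -0.38 or less in all 6 sham and the other intact arrays. Schwann cell and myelin genes had 0 of 9 past and a median of -0.12 (0.16 without intact replicate 3), with Mag at 0.51 (adjusted p = 0.36), Ngfr at 0.28, Gjb1 at 0.26 and Cnp at -0.30. Thyroid and epithelial genes had 0 of 9 past and a median of 0.07, with Tshr at 0.49 (0.475), Cldn3 at -0.73, Calca at 0.45 and Krt14 at 0.44.

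**Figure D5:**
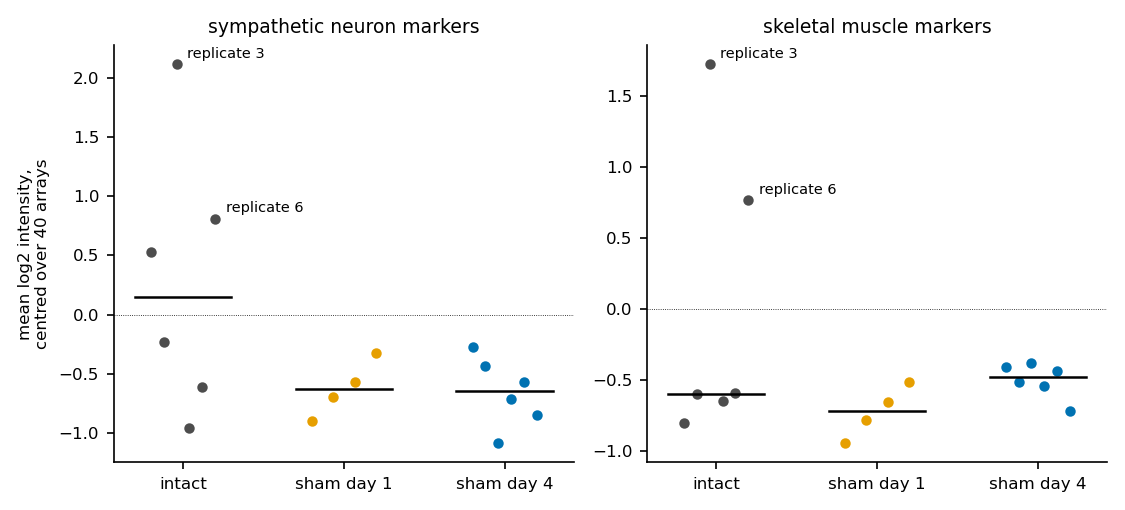
Mean centred log2 intensity of 12 sympathetic neuron and 22 skeletal muscle markers in each intact, sham day 1 and sham day 4 array, with bars at the medians. Intact replicates 3 and 6 are the highest points in both panels, and sham day 4 points run from -1.09 to -0.28 and from -0.72 to -0.38.

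Clock genes cycle over the day in the vessel wall, and of 9 tested 4 passed against intact on day 1 after sham and 0 on day 4. The clock time of dissection is not given in the sources used here. Bmal1, the activator of the clock, read 25.5, 62.7 and 110.4 in intact arrays, 656.7, 796.6 and 1104.5 in sham arrays of day 1 and 99.9, 109.95 and 182.4 in those of day 4. It was 14.5-fold above intact on day 1 (8.27 to 25.4, adjusted p = 2e-07), and on day 4 at 1.14 (SE 0.36, adjusted p = 0.196). Dbp, an output gene of the clock, read 2409.5 to 4419 in intact arrays, 247 to 308.2 on day 1 and 1364.6 to 3416.6 on day 4, at -3.56 (adjusted p = 1.91e-05) and -0.72 (adjusted p = 0.582). Nr1d2, Nr1d1, Per2 and Bhlhe41 had day 4 differences of -0.84, 0.52, -0.84 and -0.78 (adjusted p = 0.546, 0.578, 0.289 and 0.576), and Tef, Hlf and Bhlhe40 0.24, 0.10 and 0.16. On day 1, 1 of the 9 rose and 3 fell (0.197% and 0.31% of all genes). With the day 1 replicates that were most alike averaged, Bmal1, Dbp and Nr1d2 passed in limma (adjusted p = 0.0001, 0.00341 and 0.0416). Nr1d1 (0.4015) and the other clock genes did not. On day 4, 1 was higher and 1 lower at an unadjusted p under 0.05 (4.48% and 5.78% of all genes), and with only sham and intact arrays in the fit 1 was higher and 4 lower. That fit also gave more such p-values over all 5827 probe sets, 779 in either direction against 586 in the main fit.

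Between the 2 days after sham 292 probe sets passed (5.01%), 192 higher (3.3%) and 100 lower (1.72%) on day 4. With array medians set equal, which lowers the median difference by 0.26, 64 were higher and 246 lower, and 164 of the 292 were among them. After quantile normalization 60 were higher and 55 lower, so the split between directions depended on the scaling. The 4 arrays of day 1 form 2 alike pairs, replicates 1 and 2 and replicates 3 and 4, with SDs of log2 differences of 0.489 and 0.532 against 0.732 to 0.787 across the pairs. Whether they are independent pools was not tested, and with each pair averaged 9 probe sets passed. Without sham day 1 replicate 1, 2 or 3 the count was 141, 91 or 57, and without sham day 4 replicate 1, 2 or 5 it was 189, 169 or 119. Bmal1 was lower on day 4 than on day 1 by 6.55-fold (adjusted p = 0.000101, and 0.0107 with the pairs averaged), and Cyp2c11, a steroid hydroxylase, fell by 4.24 on the log2 scale (adjusted p = 1.4e-05, and 0.00226 averaged). Cyp2c11 read 24.8 to 225.7 on day 4, 539.2 to 1804.3 on day 1 and 15.1 to 121.9 in intact arrays.

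Dbp rose by 2.84 from day 1 to day 4 (adjusted p = 0.000833, and 0.0504 averaged). A second Dbp probe set did pass with the pairs averaged (adjusted p = 0.0399). The other genes named by size of change were Rpl30 (2.43), Sf3b1, a splicing factor (2.43), and Col1a2 (6.70), higher on day 4, and Sncg (-3.82), the leukocyte gene Ptprc (-3.43) and RT1-Db1 (-2.99), lower on day 4. None of these 6 passed with the pairs averaged (adjusted p = 0.0619 to 0.266). The Col1a2 probe set read 12.1 to 186.3 on day 1 and 323.4 to 9354.4 on day 4, with 141 as its lowest intact value. A second Ptprc probe set showed no such difference (0.00, adjusted p = 0.993), and in Sncg 1 intact array reached 1174.8 while the intact median was 47.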

How the data were processed

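RNA of pooled carotid vessels was measured on 40 one-colour Affymetrix arrays in 11 groups. The deposited intensity values are on a linear scale, 1 per probe set. Which software summarised the probes is not given in the sources used here; arrays had been scaled before they were deposited, since the 2% trimmed mean of every array lay near a common value.

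From these values, 59 control probe sets and the 2913 dimmest by mean over all arrays were left out. Intensities below the floor of 23.3, the 20th percentile of all values, were set to it and log2 taken. Group means were fitted over all 40 arrays with limma 3.58.1 in R 4.3.3 (lmFit and eBayes), with Benjamini-Hochberg adjustment over 5827 probe sets. Adjusted p-values in the text are limma's unless called exact. Platform annotation gave 1 symbol for 7006 probe sets, several for 308 and no entry for 1426, and 6985 of the single symbols matched RefSeq by identifier. Named genes are up to 12 rises and 12 falls that passed, up to 4 members with the smallest p of each list, and 4 rises and 4 falls of day 4 against day 1. The whole sterol, clock and sympathetic lists and other exceptions were named after values were seen. The members and lists were chosen with earlier results of these data known. Replicate numbers did not pair the arrays. The number of arrays limits the precision. The limma step was tested on simulated data. Alternatives covered scaling, filter, floor, arrays in the fit, replicate block and array weights, and each array was left out in turn.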

Additional observations from a re-analysis of the deposited data

Results flagged for a closer look

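Several genes differed between the 2 days after sham, by limma's adjusted p for sham day 4 minus sham day 1 on the log2 scale. Higher on day 4 were the clock genes Dbp (2.84, adjusted p = 0.000833), Nr1d2 (1.98, 0.025), Nr1d1 (1.94, 0.00138) and Tef (0.70, 0.0424). The muscle genes Cnn1 (1.27, 0.0121) and Itga7 (1.15, 0.03), the growth factor gene Fgf2 (1.21, 0.00273) and Or4b1d (1.02, 0.0366) were higher as well. Lower on day 4 were Bmal1 (-2.71, 0.000101), Usp37 (-1.82, 0.00385), Klf4 (-1.41, 0.00399), Nqo1 (-1.39, 0.0247), H2az1 (-1.12, 0.0421), Scd2 (-1.04, 0.0424), Rfx5 (-0.99, 0.0249) and Hspa5 (-0.90, 0.0314). Stk38 was lower in its dimmer probe set (-2.21, 0.0305). With the alike day 1 replicates averaged in pairs, Bmal1 alone of these probe sets passed (0.0107), and the others had adjusted p from 0.0504 (Dbp) to 0.291 (Scd2). Second probe sets of Dbp and Bmal1, not among these, passed in that fit (0.0399 and 0.00441).

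Single arrays stood apart from their group by Dixon's criterion in 18 of 243 groups of values checked, where chance gives about 1 in 20. Among sham arrays of day 4, replicate 2 was low for Hspa5 (1223.4), the second Scd2 probe set (599.9) and M18531cds_f_at (163.8). Replicate 6 was low for Nqo1 (239.9), replicate 4 low for Myh4 (42.4) and replicate 1 high for Srebf1 (271.7). Among intact arrays, replicate 1 was low for Dhcr7 (137.6) and Acaca (18.7), replicate 2 low for Bhlhe41 (702.2) and replicate 5 low for Nr1d2 (490.5) and high for Higd1a (1552). Intact replicate 3 was high for Acat2 (1560) and M28670_at (28.5), and intact replicate 6 for M18528cds_f_at (84.9). For M28670_at and M18528cds_f_at all other intact arrays were at the floor, so any value above it is flagged. The rate of 1 in 20 does not apply to these flags. Among sham arrays of day 1, replicate 1 was low for Cgrrf1 (508.8), replicate 2 low for Dbp (247), replicate 3 high for Gap43 (240.1) and replicate 4 high for Lss (445.4).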

How the results depend on the processing

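For sham day 4 against intact, 10 probe sets passed after quantile normalization, 6 with only the groups compared, 51 with array weights and 0 to 24 when each array was left out. With a replicate block limma gave 0 (725 at an unadjusted p under 0.05), and without sham day 4 replicate 6, intact replicate 1 or intact replicate 4 it gave 0 as well (535, 471 and 565). Replicate numbers did not pair the arrays: correlations of same-numbered deviations ran from -0.282 to 0.318, and of the 6 numbers only 5 matched itself best. For sham day 1 against intact the count was 109 with only the groups compared, 124 with only sham and intact arrays, 312 with array weights, 89 without 4 tPA arrays that stood apart, 26 with alike pairs averaged and 36 to 53 when each array was left out (36 without sham day 1 replicate 3). For sham day 4 against day 1 it was 115 after quantile normalization, 543 with only sham and intact arrays, 90 with the replicate block, 991 with array weights, 446 without the 4 tPA arrays, 9 with pairs averaged and 57 to 330 when each array was left out. List members that passed on day 4 numbered 0 with only the groups compared and 0 to 5 when each array was left out. The sham minus intact difference in array median was 7.38 to 13.9, and that in bright probe sets reading below 100 was -3.1 to -1.83, when each array was left out. The 4 tPA arrays and the averaged pairs were chosen after seeing the data. The causes of these changes were not tested. The 22 probe sets called for sham day 4 against intact kept their direction under every alternative that included them. This was likely beforehand, since they were selected on the same arrays. Directions were not followed for the calls of the other 2 comparisons. Dim probe sets are limited by the floor, and pools of 3 rats hide the spread between animals.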
